A study of Mus musculus with 37 samples.

Results

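The nuclear pore, importin and lamina genes examined here were the protein-coding genes whose symbols begin with Nup, Kpna, Kpnb, Xpo, Ipo, Lmna or Lmnb and a number or letter, together with Npm2 and Npm3. The rule reads the symbol and the gene's type and no measured value. There were 45 such genes among 29294 gene symbols listed in 4 RNA-seq tables, and 41 of them stood in all 4 tables.

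Nuclear pore complexes are channels through both membranes of the nuclear envelope, built from nucleoporins in stacked rings. Importins of the beta family carry cargo through them, importin alpha proteins (Kpna genes) link cargo with a classical nuclear localisation signal to importin beta 1 (Kpnb1), and exportins (Xpo genes) carry cargo out, with the small GTPase Ran setting the direction. Lamins form the meshwork under the inner nuclear membrane. Mouse oocytes hold an oocyte-type importin alpha, Kpna7, and the oocyte histone chaperone nucleoplasmin 2, Npm2, both supplied by the mother to the embryo, which starts its own transcription around the 2-cell stage.

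The study deleted Hira (ZH line) or Cabin1 (CabZ line), subunits of the chaperone complex that deposits histone H3.3, from growing oocytes of C57BL/6 mice with floxed alleles and a Cre driven by the Zp3 promoter, which is active in the female germline. RNA-seq covered fully grown germinal vesicle (GV) oocytes of both lines after superovulation, each as Het and KO, and 2-cell embryos of the CabZ line, also as Het and KO, with 4 libraries in every group. ATAC-seq covered GV oocytes of the CabZ line, with 3 Het and 3 KO libraries. The Het controls were littermates that carried the Cre and 1 deleted allele, so that no group was wild type for the locus. In a further experiment wild-type GV oocytes received Zscan4d RNA (Zscan4 OE, 3 libraries) or GFP RNA (4 libraries), were matured and activated without sperm, and were sequenced as 2-cell embryos. Oocytes or embryos were pooled within a library. The age of the females is not stated, nor whether the CabZ 2-cell embryos came from fertilisation or from activation without sperm, and nothing says that the libraries of a group came from different females, so p-values measure the spread between these pools.

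Levels are given in RPM, the usual scale for the reads of a gene as a share of the reads of its library, restored from the deposited values, and levels between genes as exon RPKM, the RPM within the table's reads divided by the exon length in kilobases. RPM is a share of a library, so that less of one RNA and more of all others cannot be told apart. Between 5819315 and 21869858 reads on genes lay behind each library, and all 12 oocyte markers chosen were listed in every table, 1 of them under 1 RPM in every library labelled Zscan4 OE. The 4 to 11 granulosa and cumulus cell markers listed summed to at most 129 RPM. Each of ZH KO libraries 1 to 3 correlated with the rest of its group at 0.942 to 0.945, against at least 0.985 for ZH Het, the library labelled Zscan4 OE B at 0.933, and the CabZ 2-cell libraries at 0.922 to 0.953, lowest in CabZ KO library 4 (Pearson's r over genes on the log2 scale). Cabin1 was lower in the CabZ KO than in the CabZ Het libraries, at 2.86 ± 1.98 against 14.1 ± 3.69 RPM in GV oocytes and 15.9 ± 5.88 against 38.1 ± 11.6 RPM in 2-cell embryos (mean ± SD, n = 4 each, 2-sided exact permutation test, p = 0.0286 both times). Hira was too low to check the ZH labels, at 0.0984 to 1.09 RPM in ZH Het and 0 to 0.81 RPM in ZH KO. Zscan4d was not higher in the libraries labelled Zscan4 OE (380 ± 38 RPM, n = 3) than in GFP (560 ± 165 RPM, n = 4; exact permutation test, p = 0.229).

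In control GV oocytes 3 genes stood far above the others per exon length. Npm2 came first with an exon RPKM of 582 in ZH Het and 657 in CabZ Het. Kpna7 followed with 271 and 185, and Kpna2, the importin alpha of many dividing cells, with 260 and 166. The next genes were nucleoporins of the Y complex, the scaffold of the outer pore rings: Nup85 reached 94 in ZH Het and Nup43 90.3 in CabZ Het. The highest gene of the inner ring was Nup35 with 69.6 in ZH Het and 67.0 in CabZ Het, and the highest of the central channel was Nup54 with 66.3 and 45.0. In the basket on the nuclear side it was Nup50 with 21.4 and 14.7. On the cytoplasmic side Nup88 was highest in ZH Het (34.9) and Nup214 in CabZ Het (16.2). Receptors other than importin alpha were low: the highest beta-family importin was Ipo8 with 8.83 and 8.33, and the highest exportin was Xpo1 with 3.27 and 4.46. Lmna, which encodes lamins A and C, was the highest lamin with 5.91 and 4.70, while Lmnb1 and Lmnb2 did not exceed 4.09 RPM in any GV library. The lowest of the importin alpha genes were Kpna1 and Kpna4, which did not exceed 1.28 RPM in any Het GV library.

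The 2-cell tables showed another order, which cannot be tested against the oocytes because each table was normalised separately. In CabZ Het 2-cell embryos Npm2 (exon RPKM 135) was followed by Kpna2 (98.2), Nup43 (92.6), Kpna3 (88.7) and Xpo1 (43.5), and Kpna7 was at 6.35. In the GFP 2-cell embryos Npm2 stood at 518, Kpna3 at 174, Nup37 at 79.8, Kpna2 at 53.4, Kpna7 at 52.4 and Xpo1 at 8.28. Kpna1, an importin alpha of many somatic tissues, had 151 ± 28.8 RPM (SD, n = 4) in CabZ Het 2-cell embryos and 12.3 ± 3.78 RPM (n = 4) in GFP embryos. These levels are set side by side only.

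**Figure D1:**
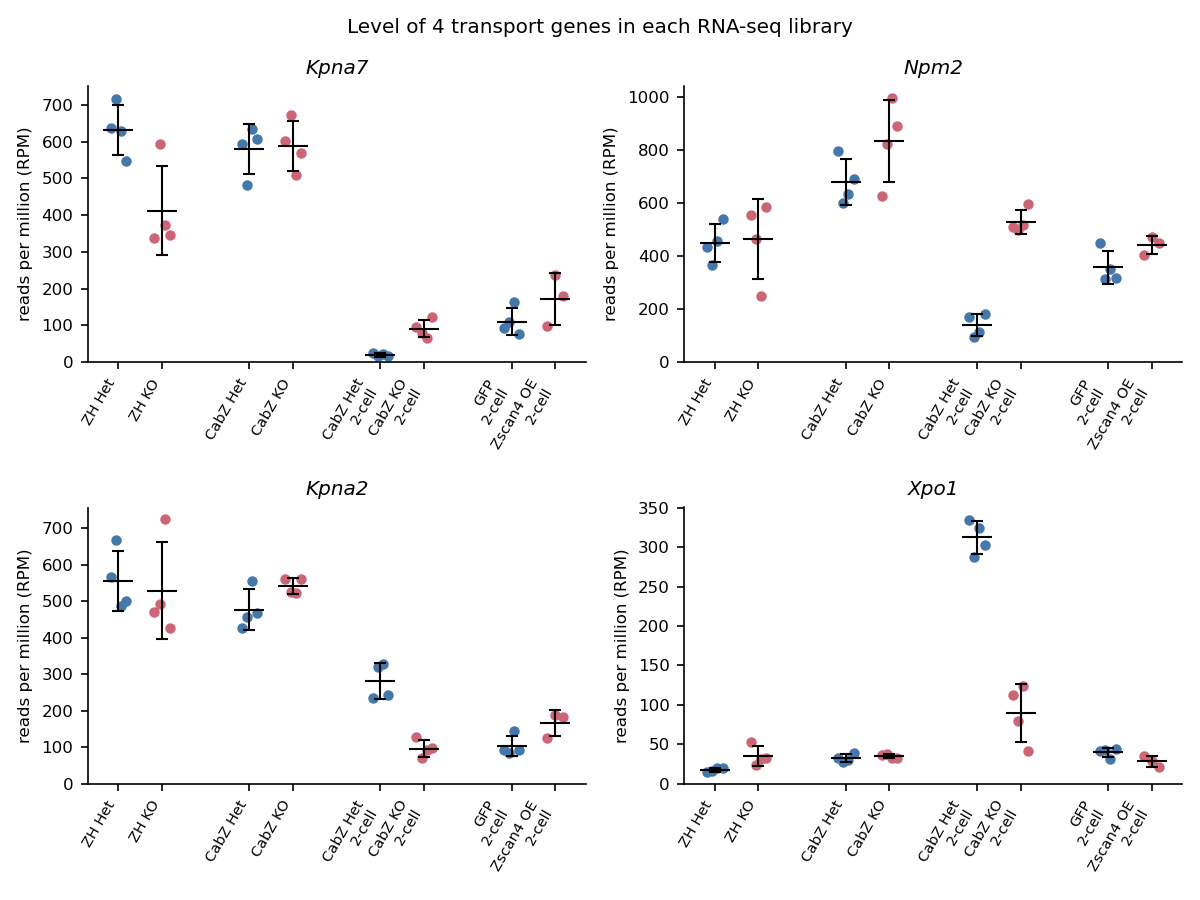
RPM of Kpna7, Npm2, Kpna2 and Xpo1 in each library (points; blue, Het or GFP; red, KO or Zscan4 OE), with the mean (bar) and SD (whiskers) of each group; the 4 tables were normalised separately. Kpna7 and Npm2 lie higher, and Kpna2 and Xpo1 lower, in all 4 CabZ KO 2-cell libraries than in all 4 CabZ Het 2-cell libraries.

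Loss of Hira was compared in GV oocytes (ZH KO against ZH Het), to ask how the oocyte's stored transcripts differ without the chaperone. More of the pore and transport genes were lower than higher. Among the 34 with a mean of at least 5 RPM, 18 fell and 5 rose at an adjusted p under 0.05 (limma across all genes, Benjamini-Hochberg), while among all 9310 genes tested 31.7% fell and 22.9% rose. Past a 2-fold change as well, 8 fell and 2 rose, against 15.9% and 12.2% of all genes. With each library scaled to its median gene the 2-fold counts were 4 lower and 3 higher, and after scaling to all reads of the table they were 6 and 3. The shares of all genes past 2-fold were not computed under these scalings. The median log2 fold change of these genes was -0.70, beside -0.18 for all genes tested. The same median of all genes was -0.01 after scaling to the reads of the table, and the distance between both medians was then -0.53, beside -0.52. Scaling shifts all genes of a library nearly alike, so that this distance could hardly change and does not test the scaling. The groups did not overlap for 20 of the 34 genes, and 48.5% of all genes had groups that did not overlap. The other 11 genes were under the minimum level. Without ZH KO library 2, 19 fell and 5 rose, and over all fits that left out 1 library 16 to 21 fell and 3 to 5 rose. Summed oocyte markers ran from 7802 to 16274 RPM in ZH KO and from 17087 to 18172 RPM in ZH Het, and their part in these differences was not tested.

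The lamin A/C gene changed most. Lmna was at 36.4, 24.8, 18.4 and 23.4 RPM in ZH Het libraries 1 to 4 and at 2.12, 7.66, 5.20 and 4.55 RPM in ZH KO libraries 1 to 4. All KO libraries were thus under all Het libraries, with a log2 fold change of -2.23 ± 0.31 (SE; adjusted p = 0.000259). It stayed between -2.45 and -1.96 when any one library was left out.

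Of the 5 exportins 4 fell and 1 rose, where 31.7% of all genes fell and 22.9% rose. Their median log2 fold change was -1.07, and their summed level was 64.9 RPM in ZH Het and 55.3 RPM in ZH KO. Xpo6, the exportin of actin, was at 15.7, 17.6, 12.4 and 10.9 RPM in ZH Het and at 3.33, 5.79, 10.3 and 3.67 RPM in ZH KO (log2 fold change -1.25 ± 0.30, adjusted p = 0.00573). Xpo5, which exports microRNA precursors, was at 10.4, 8.33, 8.75 and 9.74 RPM and at 3.59, 5.36, 3.17 and 2.42 RPM (-1.18 ± 0.20, adjusted p = 0.00089). In both genes the lowest Het library was above the highest KO library, although Xpo6 came close, with 10.9 and 10.3 RPM. Xpo4 was at 13.2, 12.1, 18.9 and 13.2 RPM in ZH Het and at 6.03, 7.23, 4.71 and 7.09 RPM in ZH KO (-1.07 ± 0.19, adjusted p = 0.00118). Xpo7 fell by 0.92 ± 0.21 (adjusted p = 0.00409). Xpo1, the main exportin for proteins with a leucine-rich export signal, went the other way, from 14.9, 15.7, 19.6 and 19.9 RPM to 52.8, 23.9, 31.5 and 32.3 RPM (log2 fold change 0.92 ± 0.23, adjusted p = 0.00805), and its groups did not overlap.

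Importins went in both directions. In the beta family Ipo5 and Ipo7, both carriers of ribosomal proteins among other cargo, rose over 2-fold. Ipo5 was at 12.3, 12.4, 12.5 and 12.6 RPM in ZH Het and at 39.1, 34.9, 28.6 and 31.5 RPM in ZH KO (log2 fold change 1.35 ± 0.15, adjusted p = 7.13e-05). Ipo7 was at 2.16, 3.82, 5.19 and 5.21 RPM and at 14.4, 10.3, 12.8 and 11.7 RPM (1.43 ± 0.23, adjusted p = 0.000682), which are 30 to 224 reads per library. Every KO library was above every Het library for both. Ipo8 fell by 0.75 ± 0.17 and Ipo9 by 0.98 ± 0.25 on the log2 scale (adjusted p = 0.00437 and 0.00871), while Kpnb1, the common partner of the importin alpha proteins, had a log2 fold change of 0.20 ± 0.20 (adjusted p = 0.43).

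Among the importin alpha genes Kpna3 fell over 2-fold, from 170, 203, 225 and 208 RPM to 125, 84.3, 91.9 and 99.4 RPM (log2 fold change -1.01 ± 0.17, adjusted p = 0.000955). The oocyte-type Kpna7 was at 636, 717, 629 and 549 RPM in ZH Het and at 339, 593, 373 and 345 RPM in ZH KO. Library 2 of ZH KO lay within the Het range and the other 3 lay below it, so that the groups overlapped. Kpna7 fell by 0.65 ± 0.21 (adjusted p = 0.0217), and by 0.84 without ZH KO library 2 (adjusted p = 0.00184). The call was lost when ZH Het library 1 or 2, or ZH KO library 1 or 4, was left out (adjusted p = 0.0512 to 0.0656), and after scaling to the reads of the table (adjusted p = 0.0637). Kpna2 was between 428 and 725 RPM in ZH KO and between 488 and 667 RPM in ZH Het (-0.09 ± 0.20, adjusted p = 0.719). Npm2 was at 435, 365, 457 and 541 RPM in ZH Het and at 556, 467, 249 and 585 RPM in ZH KO (-0.01 ± 0.27, adjusted p = 0.969). For Npm2 the KO libraries lay on both sides of the Het range, with library 3 lowest.

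Of the 17 nucleoporins tested 9 fell and 2 rose, beside the same shares of all genes, 31.7% and 22.9%. Nup160 and Nup107, scaffold subunits of the Y complex, fell over 2-fold: Nup160 was at 64.1, 61.1, 80.8 and 60.5 RPM in ZH Het and at 38.2, 28.9, 16.5 and 34.8 RPM in ZH KO (log2 fold change -1.20 ± 0.25, adjusted p = 0.00284). Nup107 was at 89.3, 88.4, 77.4 and 76.0 RPM and at 32.6, 45.5, 34.4 and 34.8 RPM (-1.16 ± 0.16, adjusted p = 0.00028). The groups of both genes were apart. Nup85, a further subunit, fell by 0.69 ± 0.23 (adjusted p = 0.0252), a call lost without ZH Het library 1 or 2 or ZH KO library 1 or 4 (adjusted p = 0.0609 to 0.0766). Other subunits of the complex were not lower: Nup133 and Nup37 rose by 0.62 ± 0.20 and 0.54 ± 0.18 on the log2 scale (adjusted p = 0.0208 and 0.0272), and Nup43 had a log2 fold change of 0.14 ± 0.15 (adjusted p = 0.455). The call of Nup37 was lost in 5 of 8 fits that left out 1 library, with an adjusted p of up to 0.077, and that of Nup133 without ZH Het library 1 (adjusted p = 0.0536). Nup133 shares 461 exon bases with Gm29773 and 268 with Gm45890, both on the other strand. Its reads cannot be fully told apart from theirs.

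In the inner ring Nup93 was at 160, 158, 102 and 110 RPM in ZH Het and at 51.0, 120, 51.7 and 44.4 RPM in ZH KO (log2 fold change -1.07 ± 0.31, adjusted p = 0.0144). Its groups overlapped through ZH KO library 2, without which the log2 fold change was -1.39. The same library held the highest Nup188 of the table, 149 RPM beside 34.0 to 56.1 RPM in the other KO libraries, and the highest Nup62. Nup188 was not called (log2 fold change 0.72 ± 0.37, adjusted p = 0.121) but was past the threshold without ZH KO library 1 (adjusted p = 0.0309) and with median scaling (adjusted p = 0.0365). Both basket genes fell, Nup50 by 0.86 ± 0.21 and Nup153 by 0.72 ± 0.20 (adjusted p = 0.00688 and 0.0138), the latter not with median scaling (adjusted p = 0.0569). Nup54 and Nup98 of the central channel and Nup214 of the cytoplasmic side fell by 0.84 to 0.95.

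**Figure D2:**
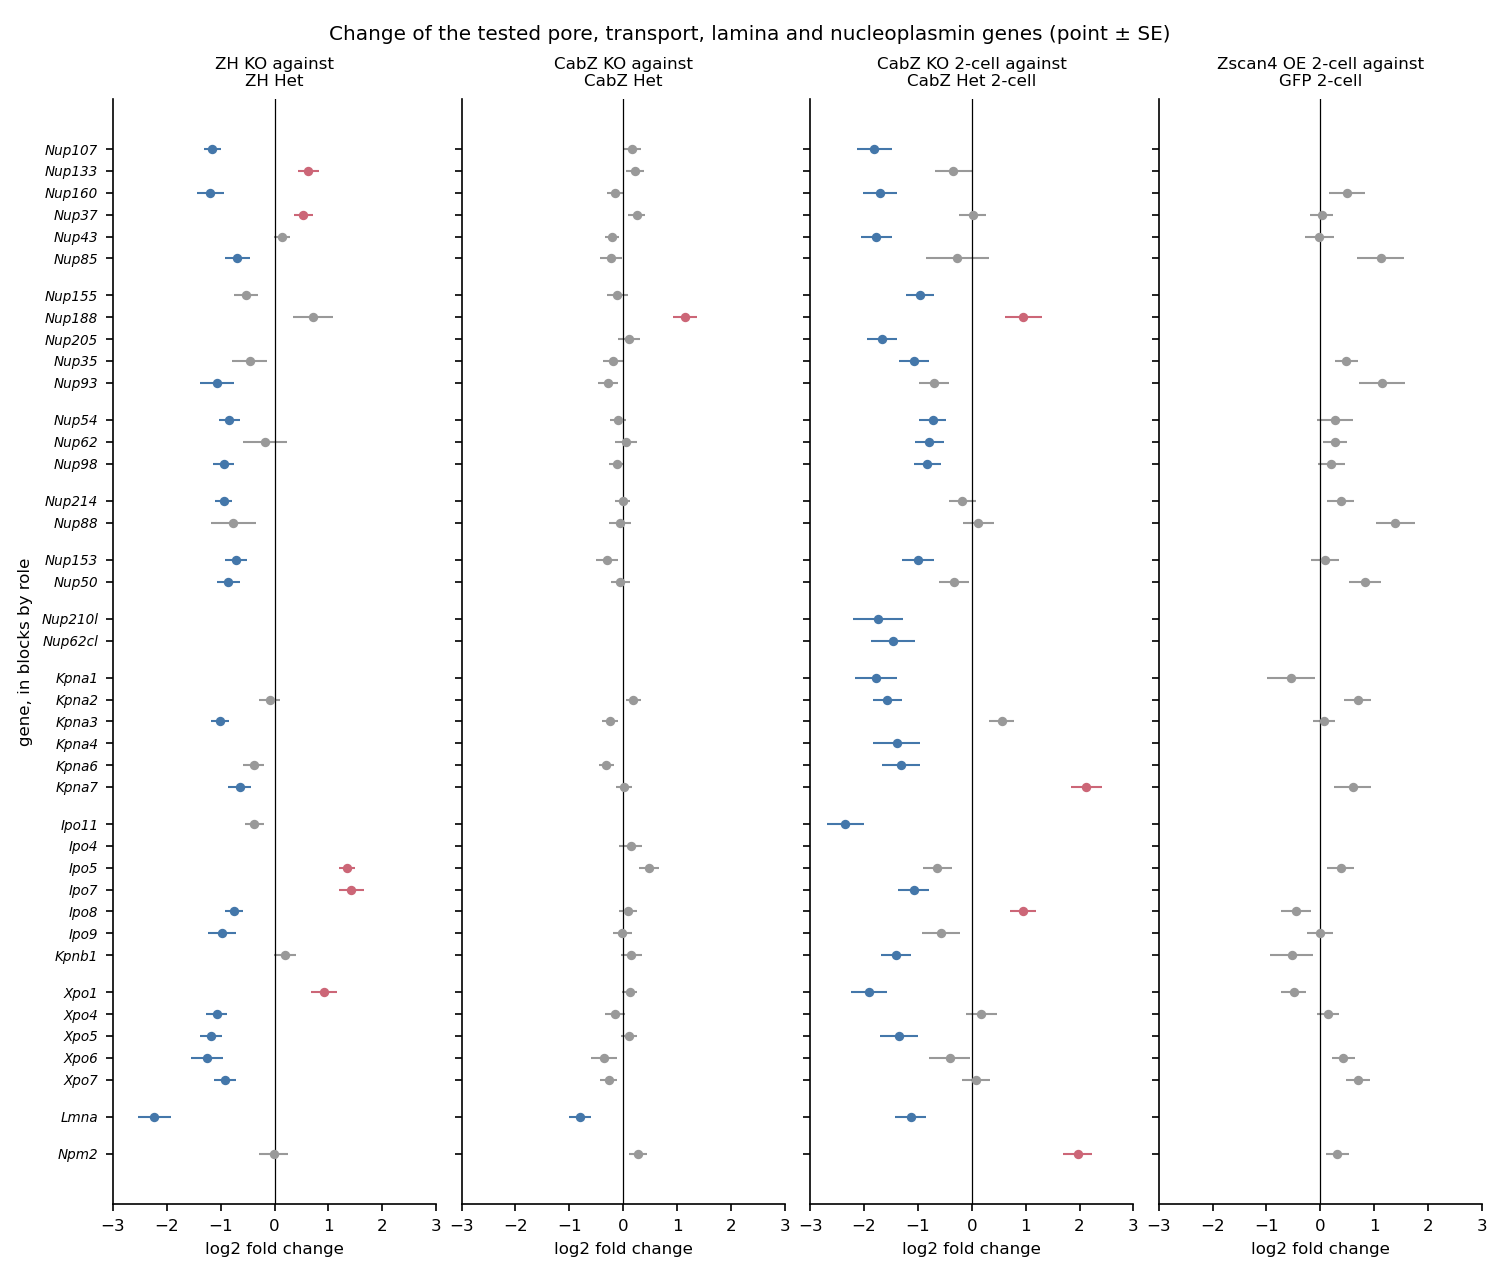
Log2 fold change (point, with SE as line) of each gene tested in the 4 comparisons, in blocks by role from the Y complex at the top to nucleoplasmin at the bottom; red, rose and blue, fell at an adjusted p under 0.05 (limma), grey, not past it. Most points lie left of 0 in ZH KO and CabZ KO 2-cell embryos, and all but Nup188 (1.15) within 1 of 0 in CabZ KO oocytes.

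Loss of Cabin1 was compared in GV oocytes in the same way. Few of the pore and transport genes differed: 1 of 34 rose and 1 fell, where 9.01% of all 9523 genes tested rose and 6.03% fell. Past 2-fold the counts were 1 and 0, against 3.35% and 1.66%. The median log2 fold change was -0.03 for these genes and -0.02 for all genes tested. The groups did not overlap for 2 genes, against 20.9% of all genes. The granulosa and cumulus marker sum was 84.2 to 129 RPM in CabZ KO and 42.6 to 57.9 RPM in CabZ Het oocytes, with 4 and 3 of the 8 listed markers under 1 RPM in every library, and its part in these results was not tested.

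The gene that rose was Nup188, a large scaffold protein of the inner ring. It was at 38.7, 37.9, 32.0 and 37.9 RPM in CabZ Het libraries 1 to 4 and at 101, 120, 58.2 and 65.2 RPM in CabZ KO libraries 1 to 4 (log2 fold change 1.15 ± 0.22, adjusted p = 0.00442). All KO libraries were above all Het libraries, and the call held with any one library left out. Nup188 shares 284 exon bases with Gm28038 on its own strand and 492 with Gm14471 on the other, and the library kit does not mark strand, so that its reads cannot be fully told apart from theirs. Its partner Nup93 had a log2 fold change of -0.28 ± 0.19 (adjusted p = 0.38).

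The gene that fell was again Lmna, from 32.4, 21.3, 29.7 and 26.5 RPM to 18.6, 19.5, 10.5 and 13.8 RPM, with no overlap between the groups (log2 fold change -0.80 ± 0.20, adjusted p = 0.0215). The call was lost without CabZ Het library 1 or 3 or CabZ KO library 4 (adjusted p = 0.0588 to 0.0709). It was also lost with the scaling of the deposited table (adjusted p = 0.104). Lmna was the only gene called in both oocyte comparisons among 32 tested in both. The share of all genes called in both was not computed.

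Kpna7 was at 595, 481, 635 and 609 RPM in CabZ Het and at 602, 672, 510 and 568 RPM in CabZ KO oocytes (log2 fold change 0.02 ± 0.15, adjusted p = 0.946). Npm2 was at 797, 601, 635 and 692 RPM and at 627, 823, 998 and 891 RPM (0.28 ± 0.17, adjusted p = 0.316). The groups overlapped for both genes. Xpo1 and Kpna2 had log2 fold changes of 0.12 ± 0.14 and 0.19 ± 0.13 (adjusted p = 0.652 and 0.393).

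In 2-cell embryos from CabZ females the differences were wide. Of the transport receptors 9 of 17 tested and of the nucleoporins 12 of 20 were lower in CabZ KO embryos, while the oocyte-type Kpna7 and Npm2 were higher. Of 39 genes tested 22 fell and 4 rose, where 27.7% of all 11151 genes tested fell and 27.0% rose. Past 2-fold 17 fell and 2 rose, against 23.7% and 22.7%. With each library scaled to its median gene the 2-fold counts were 17 and 4. With the scaling of the deposited table, under which the median of all genes was 0.62, 10 fell and 6 rose. Of all 11267 genes fitted with that scaling 1554 fell and 4834 rose. Past 2-fold 8 of the pore and transport genes fell and 5 rose with it. The shares of all genes past 2-fold were not computed under these scalings. The median log2 fold change of these genes was -0.83 and that of all genes -0.02, a distance of -0.81, which was -0.83 with the deposited scaling. Scaling can hardly change this distance either, so that it does not test the scaling. The groups did not overlap for 26 of the 39 genes, against 49.4% of all genes. Without CabZ KO 2-cell library 4, which was the lowest for Xpo1, Kpna1, Kpna4, Nup43 and Nup107, 21 fell and 3 rose. The Het libraries held 7947411 to 8239526 reads on genes and the KO libraries 5819315 to 6330244.

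The oocyte-type genes were on the high side. Kpna7 was at 25.8, 16.2, 22.2 and 15.4 RPM in CabZ Het 2-cell libraries 1 to 4 and at 95.5, 80.0, 65.7 and 121 RPM in CabZ KO 2-cell libraries 1 to 4 (log2 fold change 2.13 ± 0.28, adjusted p = 0.000333). Npm2 was at 171, 95.9, 112 and 181 RPM and at 510, 497, 518 and 597 RPM (1.96 ± 0.27, adjusted p = 0.000384). The lowest KO library was well above the highest Het library for both, and leaving out any one library left Kpna7 between 1.98 and 2.27 and Npm2 between 1.80 and 2.10. Npm2 shares 39 exon bases with its neighbour Xpo7, which had a log2 fold change of 0.08 ± 0.25, and Kpna7 shares 50 with Arpc1a. The summed oocyte markers were higher in the same libraries, at 4250 to 7572 RPM in CabZ KO against 1803 to 3087 RPM in CabZ Het 2-cell embryos. The granulosa and cumulus marker sum was also higher, at 47.3 to 71.3 RPM against 28.9 to 41.2 RPM, with 2 and 1 of the 9 listed markers under 1 RPM in every library. The part of either marker sum in the higher Kpna7 and Npm2 was not tested.

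The remaining importin alpha genes divided. Kpna2 was at 235, 321, 329 and 244 RPM in CabZ Het and at 128, 68.8, 90.7 and 96.3 RPM in CabZ KO 2-cell embryos (log2 fold change -1.56 ± 0.27, adjusted p = 0.000996). Kpna1 was at 121, 176, 132 and 176 RPM and at 55.1, 60.2, 56.9 and 17.7 RPM (-1.78 ± 0.39, adjusted p = 0.00356). No KO library of these genes reached the Het range. Kpna4 and Kpna6 also fell over 2-fold, by 1.39 ± 0.43 and 1.31 ± 0.35, on few reads: Kpna4 had 8.99 to 158 reads per library, and its call was lost without CabZ Het 2-cell library 2 (adjusted p = 0.0505). Kpna3, at 444, 304, 369 and 408 RPM in CabZ Het and 630, 511, 532 and 552 RPM in CabZ KO, did not overlap either but missed the threshold (log2 fold change 0.55 ± 0.23, adjusted p = 0.0634).

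The widest falls among the genes tested were those of an importin and an exportin, Ipo11 and Xpo1. Xpo1 was at 334, 288, 325 and 303 RPM in CabZ Het and at 112, 80.0, 123 and 41.2 RPM in CabZ KO 2-cell embryos (log2 fold change -1.91 ± 0.34, adjusted p = 0.00126). Ipo11 was at 42.6, 44.4, 43.6 and 61.7 RPM and at 5.83, 12.8, 13.3 and 5.18 RPM (-2.34 ± 0.33, adjusted p = 0.000435). Kpnb1 was at 59.2, 78.0, 73.8 and 80.1 RPM and at 22.4, 33.5, 36.8 and 18.4 RPM (-1.40 ± 0.28, adjusted p = 0.00225). In all of these the groups were apart. Xpo5 fell by 1.35 ± 0.36 and Ipo7 by 1.08 ± 0.28 (adjusted p = 0.00941 and 0.00883), whereas Ipo8, at 105, 79.9, 78.4 and 112 RPM in CabZ Het and 189, 176, 162 and 195 RPM in CabZ KO, rose by 0.95 ± 0.23 (adjusted p = 0.00651). Xpo4, Xpo6 and Xpo7 had log2 fold changes between -0.41 and 0.18 and overlapping groups.

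Among 20 nucleoporins tested 12 fell and 1 rose, where 27.7% of all genes fell and 27.0% rose. With the deposited scaling 5 fell and 1 rose, where 1554 of all 11267 genes fell and 4834 rose. In the Y complex Nup43 was at 210, 263, 257 and 217 RPM in CabZ Het and at 95.0, 81.4, 66.3 and 42.8 RPM in CabZ KO 2-cell embryos (log2 fold change -1.77 ± 0.29, adjusted p = 0.000772). Nup107 was at 47.5, 38.6, 50.4 and 33.7 RPM and at 17.5, 13.4, 11.2 and 6.01 RPM (-1.81 ± 0.32, adjusted p = 0.00123). Nup160 fell by 1.71 ± 0.31 (adjusted p = 0.00147). No KO library of the 3 genes reached the Het range, while Nup37, Nup85 and Nup133 had overlapping groups and log2 fold changes of 0.01, -0.27 and -0.35. In the inner ring Nup205 was at 26.5, 36.6, 21.3 and 42.1 RPM and at 8.90, 10.7, 7.58 and 8.93 RPM (-1.66 ± 0.27, adjusted p = 0.000827), and Nup35 fell by 1.07 ± 0.28. Nup188 was the nucleoporin that rose (log2 fold change 0.96 ± 0.35, adjusted p = 0.0375), with overlapping groups of 3.01 to 10.4 and 8.05 to 16.0 RPM, and the call was lost in 6 of 8 fits that left out 1 library. The 3 central channel genes, Nup54, Nup62 and Nup98, fell by 0.73 to 0.83 and Nup153 of the basket by 0.99. The calls of Nup54 and Nup62 were each lost in 5 of 8 fits that left out 1 library (adjusted p up to 0.0802 and 0.0779), and that of Nup98 without CabZ Het 2-cell library 2 (adjusted p = 0.0526). On the cytoplasmic side Nup214 and Nup88 had log2 fold changes of -0.17 and 0.12 (adjusted p = 0.574 and 0.74).

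Nup62cl and Nup210l, relatives of pore genes that were under 5 RPM in each GV library that lists them, also fell over 2-fold, by 1.46 ± 0.41 and 1.74 ± 0.46 (adjusted p = 0.0126 and 0.00894). Nup62cl was at 44.1, 84.9, 51.4 and 84.5 RPM in CabZ Het and at 31.0, 28.6, 9.16 and 30.6 RPM in CabZ KO 2-cell embryos, and no KO library reached the Het range. Lmna was at 13.7, 22.0, 21.9 and 15.5 RPM and at 8.04, 6.07, 11.7 and 5.84 RPM (log2 fold change -1.13 ± 0.29, adjusted p = 0.00761), so that Lmna was past the threshold in the same direction in all 3 knockout comparisons. The comparisons used different libraries. With the deposited scaling the Lmna call was lost in both CabZ comparisons (limma, adjusted p = 0.104 in oocytes and 0.137 in 2-cell embryos). The share of all genes called in 1 direction in all 3 comparisons was not computed.

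With the deposited scaling 12 of the 22 calls of a fall were lost, with the direction unchanged: those of Ipo7, Kpna4, Kpna6, Lmna, Nup35, Nup62cl and Xpo5 (adjusted p = 0.0952 to 0.208) and of Nup54, Nup62, Nup98, Nup153 and Nup155 (adjusted p = 0.247 to 0.757). Kpna7, Npm2, Kpna2 and Xpo1 passed the threshold with the same direction under each alternative that gave a value.

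**Figure D3:**
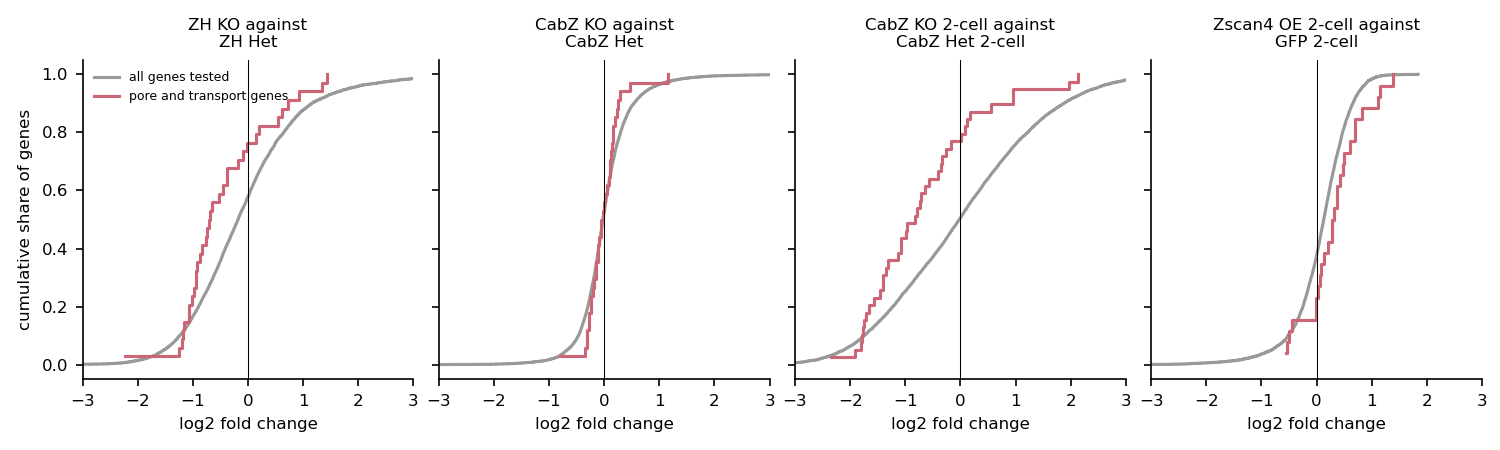
Cumulative share of genes (y axis) at or under each log2 fold change (x axis) for the pore and transport genes (red) and all genes tested (grey) in the 4 comparisons. The red line lies left of the grey in ZH KO (medians -0.70 and -0.18) and CabZ KO 2-cell embryos (-0.83 and -0.02) and follows it in CabZ KO oocytes (-0.03 and -0.02).

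The injection experiment asked whether Zscan4d RNA in the oocyte alters the 2-cell transcriptome. None of the 26 pore and transport genes tested passed an adjusted p of 0.05, and 7 had an unadjusted p under 0.05. Of all 7118 genes tested 0.0421% rose and 0.899% fell, and the same shares passed 2-fold. These are 3 and 64 genes, and fits that left out 1 library called 0 to 33 higher and 24 to 117 lower. Leaving out the library labelled Zscan4 OE B or any other library gave no call either. The median log2 fold change was 0.29 for these genes and 0.13 for all genes, and 0.14 and 0.07 without library B. The groups did not overlap for 5 genes, against 16.9% of all genes.

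Nup88, on the cytoplasmic side of the pore, had the widest difference: 39.3, 28.9, 36.6 and 27.3 RPM in GFP libraries A to D and 61.6, 181 and 59.8 RPM in the libraries labelled Zscan4 OE A to C (log2 fold change 1.39 ± 0.36, adjusted p = 0.106). Library B was the highest for Nup88 and also for Nup50, at 128 RPM beside 61.6 and 60.0 RPM in the other two. Kpna7 was at 91.5, 108, 163 and 77.6 RPM in GFP and at 97.4, 238 and 180 RPM in the libraries labelled Zscan4 OE (0.60 ± 0.34, adjusted p = 0.349). Npm2 was at 448, 315, 351 and 318 RPM and at 405, 473 and 448 RPM (0.32 ± 0.21, adjusted p = 0.42). The groups overlapped for both, and for Kpna2 and Xpo1 (log2 fold change 0.69 ± 0.26 and -0.49 ± 0.24, adjusted p = 0.193 and 0.28). A p that misses the threshold does not show that the groups were alike.

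ATAC-seq, which marks accessible DNA, gave peak lists of CabZ GV oocytes, called separately in each library. A peak summit within 500 bp of an annotated start was present for 11, 13 and 26 of 44 genes in CabZ Het libraries A to C and for 12, 5 and 8 in CabZ KO libraries A to C. As a share these were 25, 29.5, 59.1, 27.3, 11.4 and 18.2%, beside 13.0, 24.5, 43.3, 18.8, 6.51 and 9.25% of all protein-coding genes of the table. With all peaks the share was above that of all genes in each library. It moved with the number of peaks, which was 43399, 67074 and 111327 in Het and 46070, 19160 and 29600 in KO libraries. With only peaks of a -log10 q of at least 5 the shares were 0, 4.5, 34.1, 4.5, 0 and 2.27%. Those of all genes were then 0.661, 3.86, 17.6, 3.06, 0.369 and 0.334%, so that CabZ Het A and CabZ KO B no longer lay above them. With 3 libraries a side an exact permutation test cannot reach 0.05, and none was made. None of the 44 had a peak in all 6 libraries, none had one in all Het and no KO libraries or the reverse, and 6 (Ipo5, Lmnb1, Nup155, Nup160, Nup62 and Xpo5) had one in no library. The same counts were not made for all genes, so that they say nothing particular about the 44.

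**Figure D4:**
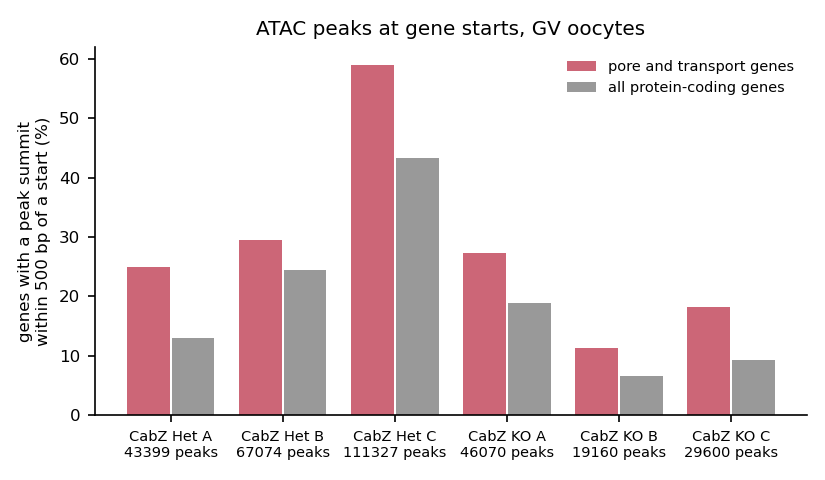
Share of genes with an ATAC peak summit within 500 bp of an annotated start in each CabZ GV library (bars; red, pore and transport genes; grey, all protein-coding genes of the table), with the number of peaks under each bar pair. The red bar is higher than the grey in all 6 libraries, and both are highest in CabZ Het library C.

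The gene with a peak in most libraries was Kpna7, with 5 of 6, and Ipo8, Kpna2 and Nup98 had 4. Any annotated start counted, so that a gene with more starts had more chances of a peak. The share of all genes with a peak in as many libraries was not computed. In all 5 Kpna7 libraries a summit was assigned to an annotated start at position -1007 relative to the RefSeq start. Its fold enrichment was 4.33, 5.46 and 5.57 in CabZ Het A to C and 7.96 and 7.38 in CabZ KO A and C. The summit lay 422, 416 and 18 bp upstream of that start in CabZ Het A to C. It lay 87 bp downstream in CabZ KO A and 12 bp upstream in CabZ KO C. Only the summits of CabZ Het C and CabZ KO C thus lay within the Kpna7 window printed below. CabZ Het B had its highest Kpna7 peak (5.82) at another annotated start, far upstream. Lmna had a peak in 1 Het and 2 KO libraries, Npm2 in 1 and 1, and Nup188 and Xpo1 in CabZ Het C alone.

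The window of that upstream Kpna7 start is printed with the RefSeq windows of Kpna2 and Xpo1, because these genes were on opposite sides in CabZ KO 2-cell embryos and have different sequence around their starts. The letters come from RefSeq and its genome, GRCm38.p6, from 250 bases before to 30 after the start, 5′ to 3′ on the gene's strand. Kpna7 lies at chr5:145010614-145010893 on the minus strand, Kpna2 at chr11:106999496-106999775 on the minus strand and Xpo1 at chr11:23255791-23256070 on the plus strand. Capitals mark the E-box letters CANNTG, the CCAAT box (CCAAT or ATTGG) and the GC box (GGGCGG or CCGCCC), searched on both strands, and no matches overlapped.
Kpna7: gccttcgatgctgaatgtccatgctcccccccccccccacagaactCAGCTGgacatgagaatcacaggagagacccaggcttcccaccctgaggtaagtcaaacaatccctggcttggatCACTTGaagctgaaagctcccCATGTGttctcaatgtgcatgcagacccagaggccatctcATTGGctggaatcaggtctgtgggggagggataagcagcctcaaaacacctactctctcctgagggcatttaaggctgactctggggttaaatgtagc
Kpna2: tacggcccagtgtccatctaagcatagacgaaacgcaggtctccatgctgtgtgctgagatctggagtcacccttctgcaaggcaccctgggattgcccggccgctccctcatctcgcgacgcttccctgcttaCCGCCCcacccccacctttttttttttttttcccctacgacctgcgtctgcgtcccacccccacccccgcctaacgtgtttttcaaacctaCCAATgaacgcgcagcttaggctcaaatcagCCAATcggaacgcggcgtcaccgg
Xpo1: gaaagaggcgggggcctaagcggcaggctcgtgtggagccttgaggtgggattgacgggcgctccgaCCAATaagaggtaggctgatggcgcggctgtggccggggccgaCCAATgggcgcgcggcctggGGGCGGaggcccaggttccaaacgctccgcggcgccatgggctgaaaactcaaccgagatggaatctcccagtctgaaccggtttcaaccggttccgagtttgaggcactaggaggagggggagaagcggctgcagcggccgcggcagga

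The Kpna7 window held 3 E-box matches, 1 CCAAT box, no GC box and 1 CpG, the Kpna2 window no E-box match, 2 CCAAT boxes, 1 GC box and 21 CpG, and the Xpo1 window none, 2, 1 and 26. The RefSeq window of Kpna7 likewise had 3 E-box matches and no GC box, with 3 CpG. RefSeq windows were found for 34 of the 45 genes, 41 windows in all, Npm2 not among them. Over these the median CpG number was 24, beside 6 over all 32851 windows of the same length. E-box letters stood in 39% of the 41 windows and 70.1% of all windows, a CCAAT box in 53.7% and 36.1%, and a GC box in 65.9% and 34.7%. These are matches of letters and not sites shown to be used. The printed genes were picked and do not stand for the others. Ipo8 and Nup188 also rose in CabZ KO 2-cell embryos, with 16 and 26 CpG in their RefSeq windows. The windows of genes that fell there ran from 1 CpG (Lmna) to 42 (Nup153). A link between these sequences and the direction of change was not tested.

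Other genes of the same machinery came from a list of 37 further genes. Their calls were not recomputed under the other scalings or with a library left out. In ZH KO oocytes 6 of 31 tested rose and 12 fell, where 22.9% of all genes rose and 31.7% fell. Ran rose, from 88.9 ± 27.6 to 340 ± 44.1 RPM (n = 4 each, log2 fold change 1.97 ± 0.23, adjusted p = 9.13e-05), and so did Npm1 (1.69) and the importin Tnpo3 (1.47). Ranbp3, Rcc1 (the Ran exchange factor), Seh1l, Rae1, Aaas, Tnpo1, Lbr (the lamin B receptor) and Sun1 fell by 1.00 to 1.73. In CabZ KO oocytes 2 of 31 rose, Ran by a log2 fold change of 0.85 ± 0.18 (adjusted p = 0.00748) and Tnpo3 by 1.10 ± 0.19 (adjusted p = 0.00264), and none fell, where 9.01% of all genes rose and 6.03% fell. In CabZ KO 2-cell embryos 18 of 33 fell and 1 rose, where 27.7% of all genes fell and 27.0% rose. Ran fell there, from 348 ± 32.9 to 140 ± 19.5 RPM (-1.32 ± 0.23, adjusted p = 0.00107), with Ranbp1, Ranbp2, the basket scaffold Tpr, the importin alpha exporter Cse1l, Xpot, Nxf1, Snupn, Lemd3, Sun1, Tor1aip1 and the lamin A protease Zmpste24, by 1.16 to 2.27. Tnpo1 rose (1.48 ± 0.27, adjusted p = 0.00153). In the libraries labelled Zscan4 OE none of 28 passed the threshold, where 0.0421% of all genes rose and 0.899% fell.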

How the data were processed

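RNA-seq libraries were made with SMART-Seq chemistry, which does not mark strand. Reads were trimmed, aligned with STAR 2.5.3a to mm10 and quantified in Partek Flow by the authors, and how reads shared by genes were assigned is not stated. Of the 45 genes, 15 share exon bases with another gene on either strand. In the ZH and Zscan4 tables the deposited values are FPKM over the whole gene span. In the Cabin1 tables the deposited values are a score, reads divided by the span 2 times with equal library totals, as the values show. The minimum of each table, a constant the authors added, was subtracted. Values of the ZH and Zscan4 tables were multiplied by the span, and those of the Cabin1 tables were returned to RPM through the span and scaled to each library's own sum. Each table was normalised separately and was tested alone. Genes with a mean of at least 5 RPM over the libraries of a table were fitted as log2(RPM + 1) with limma 3.58.1 in R 4.3.3 (lmFit and eBayes, 2-sided), and p was adjusted by Benjamini-Hochberg over all genes tested. Fold changes are on the log2(RPM + 1) scale, which understates changes of low genes. A call had an adjusted p under 0.05, and the stricter one also a change over 2-fold. Single target genes were compared by an exact permutation test.

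ATAC-seq peaks were called by the authors with MACS2 for each library on its own after alignment with Bowtie2 2.3, and the deposited peak lists give each summit's fold enrichment and its -log10 q. A gene had a peak where a summit lay within 500 bp of a GENCODE M21 start. Promoter windows came from RefSeq.

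The members and the gene lists were chosen with earlier results of these data known. The text names Kpna7 and Npm2 in each comparison, each member past the threshold and 2-fold (otherwise up to 6 with the widest rise and 6 with the widest fall among those called), the highest member per exon length in each role, and other pathway genes past 2-fold. Further members named were chosen after their values were seen. The alternatives were other pseudocounts, filters and scalings, limma's trend, the replicate number as a block, and each library left out in turn. Reads were not analysed here. Scripts were tested on simulated data with the spread of the control libraries. Of 67 genes changed 2-fold, 98.5% were called for ZH oocytes, 89.6% for CabZ oocytes, 13.4% for CabZ 2-cell embryos and 70.1% for the injection experiment. Of genes changed 4-fold at least 92.5% were called. False calls were 2.53 to 6.32% of all calls. Far fewer genes were changed than the knockout comparisons called, so that these rates need not hold for the real data.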

Additional observations from a re-analysis of the deposited data

Results flagged for a closer look

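For the genes named by rule 82 sets of 4 libraries were checked, each the values of 1 gene in 1 group. In 12 of them 1 library stood apart from the other 3 by Dixon's criterion, which chance meets in about 1 set in 20. The sets share the same libraries and most genes were named for a change, so that this rate is no measure for the count. Library 2 of ZH KO was the high one for Kpna7 (593 RPM, the others 339 to 373), Nup107 (45.5 RPM, the others 32.6 to 34.8) and Nup93 (120 RPM, the others 44.4 to 51.7). Xpo4 was high in ZH Het library 3 (18.9 RPM, the others 12.1 to 13.2), and Nup188 was low in CabZ Het library 3 (32.0 RPM, the others 37.9 to 38.7). In CabZ Het 2-cell embryos Ipo11 was high in library 4 (61.7 RPM, the others 42.6 to 44.4) and Nup210l in library 3 (19.9 RPM, the others 7.81 to 9.55). In CabZ KO 2-cell embryos library 1 was high for Ipo7 (33.7 RPM, the others 19.0 to 21.4) and Kpna6 (11.1 RPM, the others 3.09 to 3.79). Library 4 of that group was low for Kpna1 (17.7 RPM, the others 55.1 to 60.2) and Kpna4 (1.54 RPM, the others 6.87 to 7.36), and library 3 for Nup62cl (9.16 RPM, the others 28.6 to 31.0).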

How the results depend on the processing

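Of the counts and medians recomputed under alternatives 311 stayed within 1.5 times (counts) or 0.25 on the log2 scale (medians) and 34 moved. In ZH oocytes the counts past 2-fold were 1 higher and 4 lower with a pseudocount of 5 RPM and likewise with a minimum of 20 RPM, and 4 lower with median scaling. Without a filter 9 rose, and the median of all genes reversed to 0.067. On the log2(FPKM + 1) scale with a minimum mean of 1 FPKM, which fitted 15 of the 34 genes, 1 rose and 7 fell, 0 and 0 past 2-fold, with a median of -0.43. In CabZ oocytes 2 fell without a filter, 0 fell with the deposited scaling, and with that scale and minimum (17 of 34 genes fitted) 0 fell and 0 rose past 2-fold. In CabZ 2-cell embryos the FPKM scale and minimum (17 of 39 genes fitted) gave 8 lower, 1 higher and 3 lower past 2-fold and a median of -0.40. Median scaling gave 4 higher past 2-fold, and the deposited scaling 10 lower, 5 higher and 8 lower past 2-fold and a median of -0.21. A -log10 q of at least 5 left a mean of 5.67 genes with a peak per CabZ Het library and 1 per CabZ KO library, beside 16.7 and 8.33. Apart from the fewer genes fitted, the cause of these shifts was not tested. Leaving out 1 library gave 3 to 5 higher in ZH, 1 to 2 higher, 0 to 2 lower and 0 to 1 past 2-fold in CabZ oocytes, and 2 to 4 higher past 2-fold in CabZ 2-cell embryos. For the peaks that alternative was chosen after seeing the data, and gave means of 12 to 19.5 in Het and 6.5 to 10 in KO.

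The replicate numbers did not pair the libraries: same-numbered libraries of ZH correlated at -0.42 to 0.41 in their deviations from the group means. ZH Het and KO libraries of different numbers correlated at -0.42 to 0.49. A block on the replicate number does not take up what those libraries shared, and its source was not tested. With the replicate number as a block 4 rose and 18 fell in ZH, where Nup37 lost its call (adjusted p = 0.0525, limma), 1 rose and 1 fell in CabZ oocytes, and 4 rose and 20 fell in CabZ 2-cell embryos, where Nup54 and Nup62 lost theirs (adjusted p = 0.0626 and 0.0528). Over all genes the block left 0 higher and 4 lower in the injection experiment.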
